A study of Mus musculus with 9 samples.

Results

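Ccl2, Ccl7, Ccl8 and Ccl12 encode the mouse CC chemokines counted among the ligands of CCR2, the receptor through which inflammatory monocytes leave the bone marrow and enter tissue. They were taken by name from the deposited gene table and make up 4 of its 27370 genes. CC chemokines are small secreted proteins with a pair of adjacent cysteines near the amino end. They are held on heparan sulfate at cell surfaces and bind seven-helix receptors on passing leukocytes. Transcription of Ccl2 is induced in fibroblasts by NF-kB downstream of TNF, IL-1 and Toll-like receptors, and the mRNA is short-lived. CCL2 is the best known CCR2 ligand, CCL7 also binds CCR1 and CCR3, CCL8 is described in the mouse as a ligand of CCR8 as well, and CCL12 is a rodent CCR2 ligand with no direct human counterpart.

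The 4 genes were followed in sorted stromal cells in 3 groups of 3 RNA-seq libraries. Fibroblastic reticular cells (FRC), which build the scaffold of lymph nodes, were tdTomato-negative cells from lymph nodes, and red pulp fibroblasts (RPF) were tdTomato-positive cells from spleen, both from CD45-depleted suspensions stained for CD45, gp38, CD31 and VCAM1. All mice, controls included, carried Wt1CreERT2, RosatdTomato and CD64DTR and were 4 months old. The FRC and the steady-state RPF came from mice without diphtheria toxin, and the depleted RPF from mice given the toxin, which kills cells that express the receptor placed under CD64, a macrophage Fc receptor. The Cre is driven by Wt1, so RPF here are cells with a history of Wt1 expression. FRC were defined by the absence of the reporter and by their organ, and cell type and organ cannot be told apart. Each library pooled 2 mice, so the library is the unit of replication. The 12 mice comprised 6 untreated and 6 treated animals, so the untreated lymph nodes and spleens came from the same animals. The sources used here do not give which of those libraries share animals, when tamoxifen was given or how long after the toxin the spleens were taken.

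The total count per library ran from 25414645 to 43879806. The labels fitted the RPF and FRC marker lists. All 5 RPF markers (Wt1, Tcf21, Tlx1, Nkx2-5 and Nkx3-2) passed the test as higher, and all 5 FRC markers (Ccl19, Ccl21a, Il7, Cxcl13 and Bst1) as lower, in steady-state RPF against FRC. Bst1 had few or no counts in RPF, as did Tlx1, Nkx2-5 and Nkx3-2 in FRC. These genes passed the filter on low counts only through the other cell type, so their calls are a description. Wt1 also drives the Cre behind the sort reporter, so its call is no independent check. The RPF markers summed to 1.77 to 6.16 CPM (counts scaled by library size) in the FRC libraries, 1207 to 1445 CPM in steady-state RPF and 469 to 610 CPM in depleted RPF. The 9 general fibroblast markers, Dcn and Lum among them, summed to 55160 to 59583.5 CPM in FRC. Their sums were 6621 to 7711 CPM in steady-state and 5712 to 6324 CPM in depleted RPF. In steady-state RPF against FRC, 8 were called lower and 1 higher, beside 14.4% and 11.5% of all tested genes. After depletion 4 were called lower and 1 higher, beside 9.96% and 11.1%. Pdpn, which encodes gp38, was at 71.1 to 78.4 CPM in FRC and at or below 0.197 CPM in every RPF library. FRC replicate 1 and RPF steady replicate 1 had 0 and 1 counts of Y-linked genes, and the other 7 libraries 2285 to 6101. Results that changed without these 2 libraries are given with both values. Levels are CPM after TMM scaling, which adjusts library sizes for RNA composition, as mean ± SD over 3 libraries. Fold changes and adjusted p-values are from edgeR's quasi-likelihood test fitted over 15103 genes. In bulk RNA from sorted cells, fewer cells that express a gene and less RNA per cell cannot be told apart.

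The members lie on the plus strand of chromosome 11 within 81.2 kb in build mm10. Ccl2 (ENSMUSG00000035385) spans chr11:82035571-82037453, Ccl7 (ENSMUSG00000035373) chr11:82045712-82047525, Ccl12 (ENSMUSG00000035352) chr11:82101845-82103400 and Ccl8 (ENSMUSG00000009185) chr11:82115185-82116799. Each protein-coding transcript has 3 exons in GENCODE M21. Exon 2, wholly coding, is shown for all members, 5′ to 3′ on the plus strand of GRCm38, because it holds the cysteine pair that defines the family and shows how far apart the 4 transcripts are for counting. Capitals mark the codons of the adjacent cysteines.
Ccl2, chr11:82036483-82036600: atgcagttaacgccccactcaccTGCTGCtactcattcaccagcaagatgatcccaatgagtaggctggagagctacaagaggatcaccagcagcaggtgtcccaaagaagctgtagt
Ccl7, chr11:82046518-82046629: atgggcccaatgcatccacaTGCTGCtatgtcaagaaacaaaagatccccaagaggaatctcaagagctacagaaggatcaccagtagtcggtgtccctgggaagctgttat
Ccl12, chr11:82102611-82102728: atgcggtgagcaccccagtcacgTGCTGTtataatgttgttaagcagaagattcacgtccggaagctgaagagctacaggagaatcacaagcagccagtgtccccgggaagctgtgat
Ccl8, chr11:82116039-82116150: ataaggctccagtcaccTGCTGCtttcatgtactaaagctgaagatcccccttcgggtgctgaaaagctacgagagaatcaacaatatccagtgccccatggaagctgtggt
Aligned over exon 2, the pairs of members were identical at 62.6% (Ccl7 and Ccl8) to 70.3% (Ccl8 and Ccl12) of positions, and over the whole coding sequence at 43.9% to 64.8%. The longest stretch shared without a mismatch by 2 of the transcripts was 23 bases, between Ccl2 and Ccl7. Gm17268, annotated on the other strand, spans Ccl2, but its 2 exons lie 1075 and 7317 bases outside Ccl2. The sources used here do not give the strand setting of the counting.

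Depleted against steady-state RPF compares red pulp fibroblasts of mice given the toxin, which targets CD64-expressing macrophages, with those of mice without it. The toxin itself and the loss of these cells cannot be told apart, and "after depletion" covers both. Ccl2 and Ccl7 mRNA both rose, Ccl2 from an intermediate level to one of the most abundant messages of the cell and Ccl7 from at most 2.41 CPM to a moderate level. Ccl8 and Ccl12 had no counts in any RPF library, before or after depletion. The 2 that rose, of 3 members tested, stand beside 11.1% of all tested genes that were called higher in this comparison. Ccl8 passed the filter on low counts only through FRC and had nothing to compare between the RPF groups.

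Ccl2 was at 30.3, 10.8 and 19.6 CPM in steady-state RPF replicates 1, 2 and 3 and at 851, 1397 and 1253 CPM in the depleted replicates. Every depleted library lay above every steady-state library, as was the case for 21.4% of tested genes. Ccl2 rose 57.6-fold, or 5.85 on the log2 scale (SE 0.41, 95% interval of the fold 30.4 to 109, adjusted p = 4.84e-05). Only 108 of the 15103 tested genes, Ccl2 included, had a rise of that size or more. Scaled for transcript length and ranked among 13110 tested protein-coding genes, Ccl2 stood at place 4961 at steady state and place 79 after depletion.

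Ccl7 was counted 81, 122 and 14 times in the steady-state RPF libraries, which is 1.72, 2.41 and 0.463 CPM. In the depleted libraries it was at 29.8, 59.8 and 54.1 CPM. The groups did not overlap, and depleted replicate 1 was the lowest of its group for Ccl7 as it was for Ccl2. Ccl7 rose 30.3-fold (log2 4.92, SE 0.50, 95% interval of the fold 13.8 to 66.5, adjusted p = 0.000241), from place 10326 to place 2522 in the length-scaled ranking. For scale, a floor of 3 counts in a library corresponds to between 0.0592 and 0.102 CPM, so the lowest Ccl7 value in RPF was above it.

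**Figure D1:**
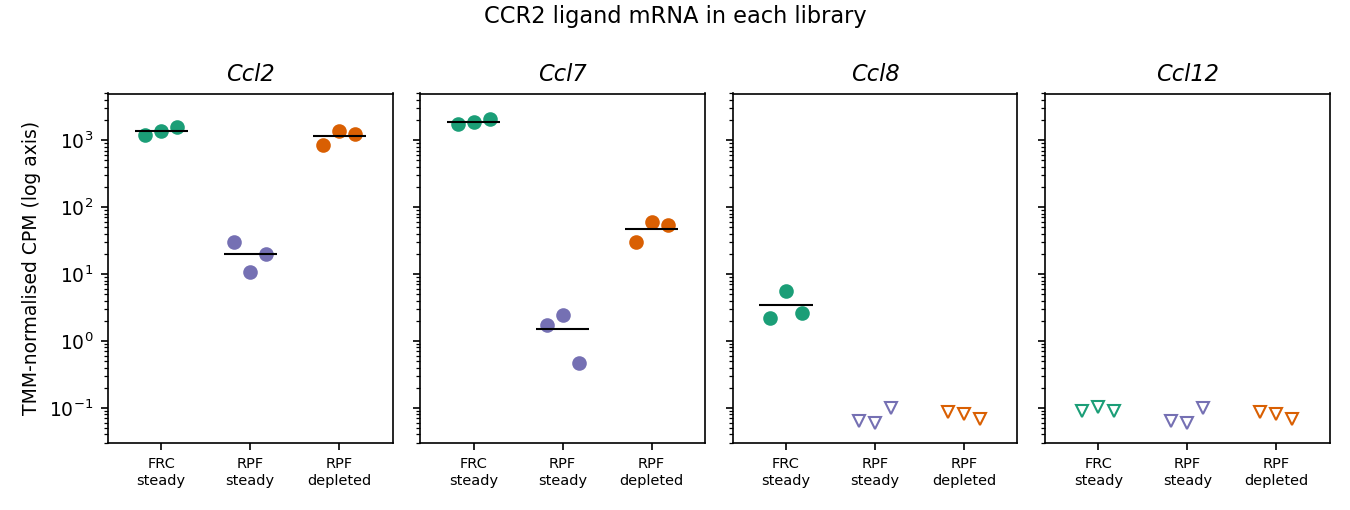
TMM-normalised CPM of the 4 CCR2 ligand genes in each library (log axis), with a horizontal line at the group mean; open triangles mark libraries with 0 counts, drawn at the level of 3 counts. Ccl2 in depleted RPF reached 851 to 1397 CPM, beside 1200.8 to 1554 CPM in FRC, while Ccl7 reached at most 59.8 CPM in depleted RPF and was at 1771 CPM or more in every FRC library.

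Markers of other cells moved in the same comparison. The red pulp macrophage markers summed to 217 to 245 CPM in steady-state and 2.14 to 15.3 CPM in depleted RPF, where 4 of the 12 in the table (C1qa, Cd5l, Adgre1 and Fcgr1, which encodes CD64) were at 0. The 7 monocyte markers summed to 294 to 435 CPM and 493 to 626 CPM, a difference that lay in Plac8 (302 ± 96.2 and 534 ± 71.6 CPM). The other monocyte markers had lower means in depleted RPF, with Lyz2 called lower at 9.40 ± 0.912 from 28.2 ± 17.6 CPM, and Cx3cr1 and Itgam at 0. Leukocyte markers were lower in the depleted libraries, at 9.75 to 14.8 against 36.1 to 93.0 CPM. Endothelial markers (23.1 to 31.6 against 55.2 to 166 CPM) and B and plasma cell markers (82.5 to 120.4 against 182 to 378 CPM) were lower as well, and neutrophil markers had a mean of 19.3 against 163 CPM. For each of these 6 lists the exact two-sided permutation p, on the share of raw counts, was 0.1. No lower value is possible with 3 libraries in each group. The neutrophil sums overlapped in CPM, at 47.3 to 353 in steady-state and 2.39 to 48.4 in depleted RPF. Mural cell markers summed to 297 to 478 CPM before and 2726 to 4795 CPM after depletion, most of it Acta2, smooth muscle actin (exact permutation p = 0.1). Dissociation and immediate early genes summed to 3869 to 6853 and 6077 to 9068 CPM (exact permutation p = 0.3). The part of these markers in the rise of Ccl2 and Ccl7 was not tested.

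Steady-state RPF against FRC addresses how the resident fibroblasts of spleen and lymph node differ at rest. FRC held far more mRNA of 3 CCR2 ligands. Ccl2 was 67.8-fold lower in steady-state RPF than in FRC, Ccl7 1202-fold lower, and Ccl8 was counted in all FRC libraries and in no RPF library. Ccl2 and Ccl7 were called lower, beside 14.4% of tested genes called lower and 11.5% called higher in this comparison. Ccl8 passed the filter only through FRC, the group where it was high, so its difference is given as a description.

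In FRC, Ccl2 was at 1200.8, 1362 and 1554 CPM and Ccl7 at 1771, 1870 and 2061 CPM. Both sets of FRC values varied less, relative to their mean, than the steady-state RPF values, and no FRC library overlapped an RPF steady-state library for either gene (23.1% of tested genes lay wholly lower in steady-state RPF). On the log2 scale the difference, RPF minus FRC, was -6.08 for Ccl2 (SE 0.41, adjusted p = 1.08e-05) and -10.23 for Ccl7 (SE 0.62, adjusted p = 5.62e-06). Ccl7 was the more abundant of the pair in FRC, at place 41 of the 13110 protein-coding genes per kilobase, with Ccl2 at place 83.

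Ccl8 had 72, 164 and 87 counts in FRC replicates 1, 2 and 3, or 2.19, 5.60 and 2.59 CPM, and 0 counts in all 6 RPF libraries. Pooled over each group and set against 3 counts summed over the RPF group as a floor, Ccl8 was at least 144-fold higher in FRC than in steady-state RPF and at least 131-fold higher than in depleted RPF. Even in FRC, Ccl8 was a rare message, at place 8135 per kilobase. Ccl12 had 0 counts in all 9 libraries and was not detectable at this depth, at which 3 counts correspond to at most 0.102 CPM in a library.

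**Figure D2:**
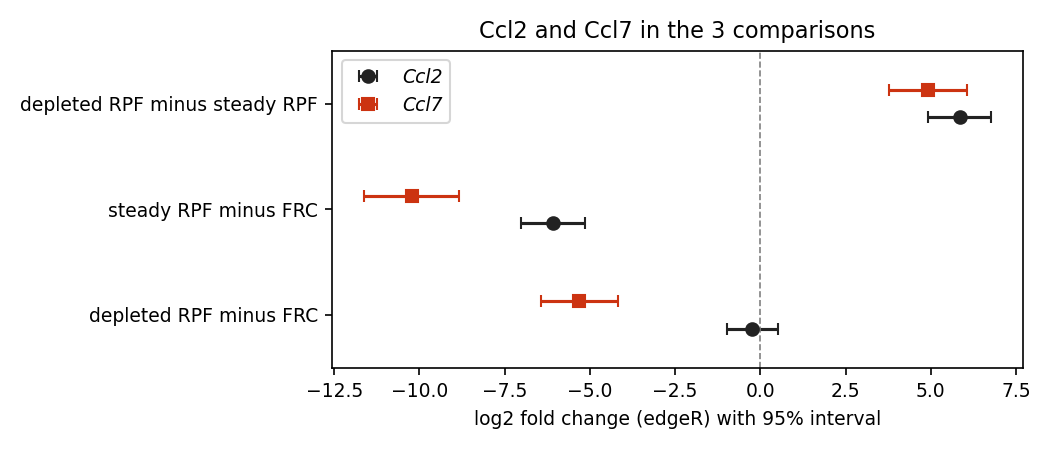
Fitted log2 fold changes of Ccl2 (circles) and Ccl7 (squares) in the 3 comparisons, with 95% intervals from edgeR over 9 libraries. Depleted minus steady-state RPF is above 0 for both genes, and depleted RPF minus FRC spans 0 for Ccl2 and is -5.31 for Ccl7.

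The tissues also differed in genes that respond to cell handling. The 8 dissociation and immediate early genes, Fos and Jun among them, summed to 30530 to 35581 CPM in FRC and 3869 to 6853 CPM in steady-state RPF (exact two-sided permutation p = 0.1). Macrophage markers summed to 92.6 to 111 CPM in FRC, under the 217 to 245 CPM of steady-state RPF. Endothelial, neutrophil and erythroid sums were also higher in steady-state RPF than in FRC, with means of 126 against 57.2, 163 against 6.57 and 377 against 46.5 CPM. Mural cell markers had a mean of 1194 CPM in FRC, 399 CPM in steady-state RPF and 3971 CPM in depleted RPF, and Rgs5, a pericyte marker, was at 269 to 374 CPM in FRC and at most 0.197 CPM in RPF. For each of these lists in steady-state RPF against FRC the exact permutation p, on the share of raw counts, was 0.1. In CPM the endothelial sums overlapped, at 49.5 to 64.9 in FRC and 55.2 to 166 in steady-state RPF. The part of these markers in the difference of the chemokines was not tested. Scaling by library size alone, without TMM, moved the median over all genes in this comparison by 0.57 on the log2 scale and turned the split of calls from 44.4% to 74.6% higher, while the log2 differences of Ccl2 and Ccl7 were -5.50 and -9.65.

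Depleted RPF against FRC sets both high-Ccl2 populations side by side, with treatment, organ and cell type all different between them. Ccl2 was at 851, 1397 and 1253 CPM in depleted RPF and at 1200.8, 1362 and 1554 CPM in FRC, and the groups overlapped. The fitted ratio of depleted RPF to FRC was 0.85, with a 95% interval from 0.506 to 1.43 (log2 -0.23, SE 0.33, adjusted p = 0.624). The adjusted p ranged from 0.317 to 0.949 over the alternatives, and with library size scaling alone the log2 difference was 0.18 in the other direction. This does not show equal levels, since the interval holds differences in both directions.

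Ccl7 was 39.7-fold lower in depleted RPF than in FRC (log2 -5.31, SE 0.50, adjusted p = 5.62e-05), with no overlap, as seen for 25.8% of tested genes. Of all tested genes 18.8% were called lower and 16.9% higher in this comparison, or 35.8% in either direction. Genes wholly higher in depleted RPF than in FRC made up 24.5%. This comparison and the 2 before it share libraries, so the 3 sets of values are not independent of each other.

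The balance of Ccl7 to Ccl2 separated FRC from RPF. Per kilobase of transcript, Ccl7 made up 61.2% to 63.7% of the summed members in FRC and 4.00% to 4.89% in depleted RPF. In steady-state RPF its share was 6.35%, 21.0% and 2.73% in replicates 1, 2 and 3, the widest spread of the 3 groups, with Ccl7 resting on 14 to 122 counts. The mean log2 ratio of Ccl7 to Ccl2 per kilobase was 0.73 in FRC, -3.65 in steady-state RPF and -4.39 in depleted RPF.

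The log2 ratio was 4.38 units apart between FRC and steady-state RPF, a 20.8-fold difference, and 5.11 units apart between FRC and depleted RPF, a 34.6-fold difference. For each the exact two-sided permutation p was 0.1, the smallest the design allows, and the groups did not overlap. Between depleted and steady-state RPF the ratio differed by -0.74 (exact permutation p = 0.7), and by 0.13 without RPF steady replicate 2 (exact permutation p = 0.8). A difference in how strongly Ccl2 and Ccl7 changed after depletion was thus not resolved. In all, the 4 genes took 0.246% to 0.276% of counts in FRC, 0.00158% to 0.00376% in steady-state RPF and 0.0925% to 0.153% in depleted RPF.

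**Figure D3:**
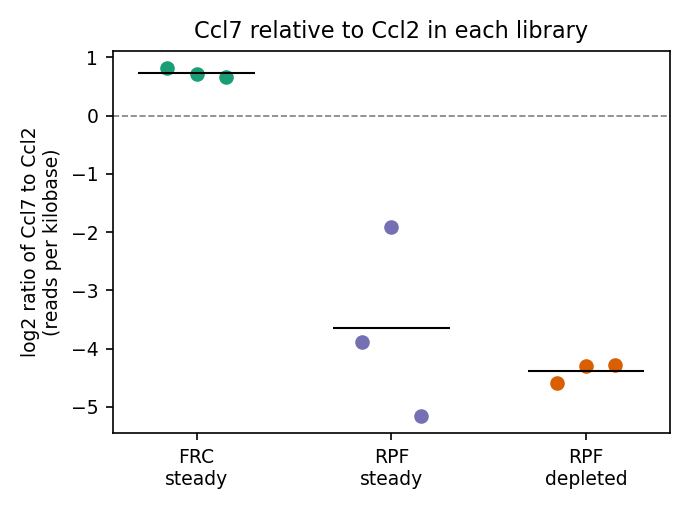
Log2 ratio of Ccl7 to Ccl2 reads per kilobase in each library, with a horizontal line at each group mean and a dashed line at equal levels. FRC libraries lie above 0 and all 6 RPF libraries below it, and steady-state RPF has the widest spread.

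Between Ccl7 and Ccl12 lies Ccl11, the eosinophil attractant eotaxin, which is no CCR2 agonist. It was at 573 ± 40.1 CPM in FRC, 0.217 ± 0.103 CPM in steady-state RPF and 3.68 ± 1.86 CPM in depleted RPF. Ccl11 rose after depletion by 4.01 on the log2 scale (adjusted p = 0.000353) and was 156-fold lower in depleted RPF than in FRC (adjusted p = 3.94e-06). Per kilobase of transcript, depleted RPF had 1222 ± 297 CPM of Ccl2, 59.8 ± 19.9 CPM of Ccl7 and 3.4 ± 1.72 CPM of Ccl11, in their order along the chromosome. Steady-state RPF had the same order at lower levels, with 21.2 ± 10.2, 1.91 ± 1.23 and 0.2 ± 0.0955 CPM per kilobase. Its Ccl11 value rests on 7, 17 and 5 counts in replicates 1, 2 and 3. In FRC the same genes were at 1438 ± 185, 2373 ± 184 and 529 ± 37.1 CPM per kilobase. Within 500 kb on each side of the members the table lists 5 other genes, of which 3 were tested. Besides Ccl11 these were Tmem132e, with 0 counts in steady-state and 14.6 ± 3.12 CPM in depleted RPF, and Asic2, a channel gene at 34.1 ± 11.8 CPM before and 7.22 ± 3.03 CPM after depletion (adjusted p = 0.217).

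**Figure D4:**
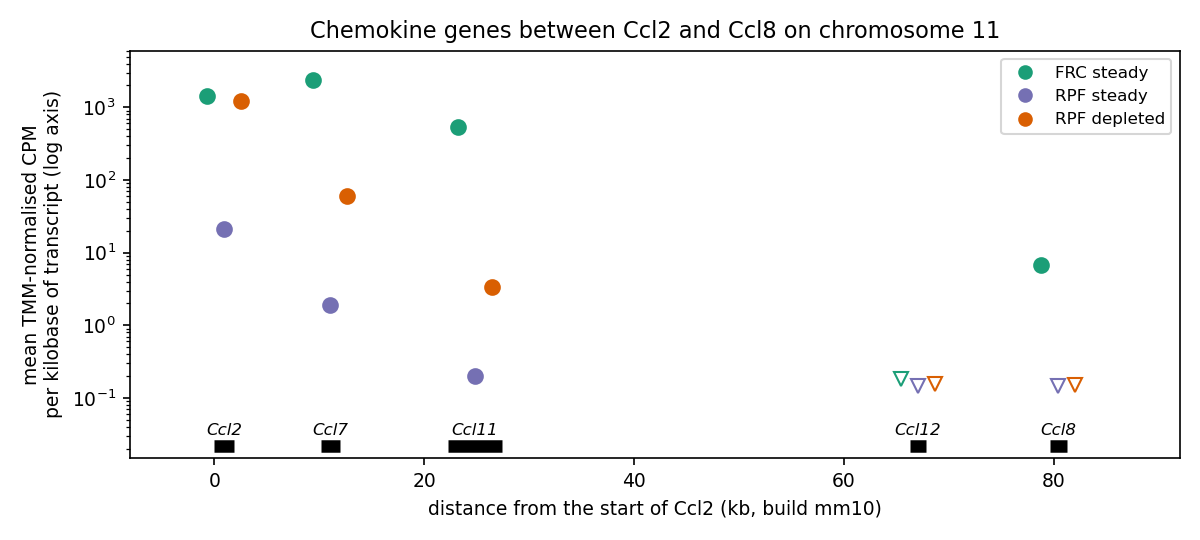
Mean TMM-normalised CPM per kilobase of transcript (log axis) of the 5 chemokine genes against their distance from the start of Ccl2, with black bars for the genes and open triangles, at the mean level of 3 counts, for groups with 0 counts. FRC was between 529 and 2373 CPM per kilobase over Ccl2, Ccl7 and Ccl11, and at 6.77 for Ccl8. Over Ccl2, Ccl7 and Ccl11, depleted RPF went from 1222 to 59.8 to 3.4 and steady-state RPF from 21.2 to 1.91 to 0.2.

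Promoter sequence from RefSeq (GRCm38.p6) was at hand for Ccl8 and Ccl12, 2 of the 4 members, and these are the ones with no counts in RPF. The 250 bases before each start are shown on the plus strand, 5′ to 3′, with the TATA box in capitals.
Ccl8, chr11:82114935-82115184: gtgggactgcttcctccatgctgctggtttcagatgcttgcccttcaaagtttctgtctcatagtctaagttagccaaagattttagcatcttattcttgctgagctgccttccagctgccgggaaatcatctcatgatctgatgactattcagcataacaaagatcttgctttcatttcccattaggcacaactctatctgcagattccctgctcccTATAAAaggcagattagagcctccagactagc
Ccl12, chr11:82101595-82101844: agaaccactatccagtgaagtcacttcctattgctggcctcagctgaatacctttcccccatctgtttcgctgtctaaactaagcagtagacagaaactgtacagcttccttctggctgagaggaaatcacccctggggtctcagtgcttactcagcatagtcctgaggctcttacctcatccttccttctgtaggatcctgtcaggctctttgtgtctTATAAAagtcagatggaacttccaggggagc
The windows were searched on both strands for the kB motif and for AP-1 (TGANTCA), C/EBP (TTNNGNAA), the GC box (GGGCGG), the TATA box (TATAAA), GAS (TTCNNNGAA) and ISRE (GAAANNGAAA). The TATA box matched in both, 32 to 27 bases before the start of Ccl8 and 31 to 26 bases before that of Ccl12, and none of the other motifs did, so no matches overlapped. Among 27025 promoters of the same length, 13% held the TATA box, 7.01% kB, 6.87% AP-1, 36.9% C/EBP, 32.9% the GC box, 7.18% GAS and 3.04% ISRE. A missing match says only that these letters are not in this window.

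Genes known to act on Ccl2 transcription, on chemokine mRNA and on the secreted proteins were followed as lists. Most genes of NF-kB subunits, kinases and inhibitors rose in RPF after depletion, with 12 of 14 higher and 0 lower, beside 11.1% and 9.96% of all tested genes. Its median log2 fold change was 1.5, against -0.09 over all tested genes. Without the libraries that lack Y-linked reads 10 were higher. Nfkbia, the inhibitor that NF-kB itself induces, was at 309.6, 140.4 and 196 CPM in steady-state RPF and at 1086, 1265 and 1165 CPM after depletion (log2 2.44, adjusted p = 0.000279). Rela, the p65 subunit, rose 2.79-fold from 143 ± 13 to 399 ± 66.0 CPM (adjusted p = 0.000154), and Nfkb1, the p105 precursor of p50, 3.18-fold (adjusted p = 0.000296). The 2 members not called were the kinase subunits Chuk and Ikbkg, at 40.3 ± 12.5 and 33.4 ± 8.63 CPM in depleted RPF.

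Against FRC, 11 of these 14 genes were lower in steady-state RPF and 0 higher, beside 14.4% and 11.5% of all tested genes, and with library size scaling alone 10 were lower and 2 higher. Nfkb1 was 5.15-fold and Rela 3.44-fold lower, with adjusted p-values of 2.11e-05 and 2.39e-05. Depleted RPF against FRC had 1 higher, the kinase Ikbkb, and 5 lower, beside 16.9% and 18.8% of all tested genes, a split that became 4 higher and 1 lower with library size scaling alone. These comparisons share their libraries with the first.

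**Figure D5:**
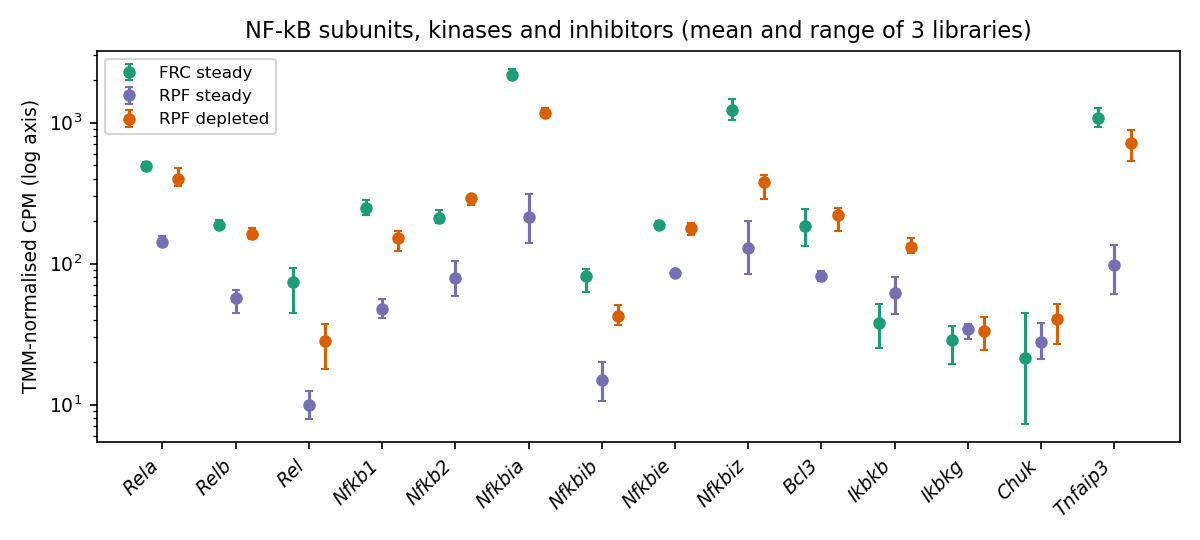
TMM-normalised CPM (log axis) of the 14 genes of the NF-kB list in the 3 groups, as mean with bars from the lowest to the highest of 3 libraries. For 12 of the 14 genes depleted RPF was called higher than steady-state RPF, and Chuk and Ikbkg were not called.

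Of the receptors and adaptors upstream, 10 of 22 rose after depletion and 1 fell (11.1% and 9.96% of all tested genes), with 6 higher under library size scaling alone and 7 without the libraries that lack Y-linked reads. The adaptor Myd88 rose 2.27-fold from 80.7 ± 11.3 to 183 ± 7.34 CPM (adjusted p = 0.000271) and the TNF receptor gene Tnfrsf1b 2.47-fold (adjusted p = 0.0021). Il6st, the signalling chain shared by IL-6 family receptors, was the member that fell, from 1306 ± 115 to 699 ± 78.9 CPM (adjusted p = 0.00163). In steady-state RPF against FRC 3 were higher and 8 lower (11.5% and 14.4% of all tested genes), with 9 higher and 6 lower under library size scaling alone. Myd88 and the IL-1 receptor gene Il1r1 were 5.15-fold and 2.56-fold lower (adjusted p = 3.46e-06 and 7.51e-05).

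Other transcription factors described at the Ccl2 promoter, mainly AP-1 and C/EBP members, had 7 of 14 higher and 0 lower after depletion, beside 11.1% of all tested genes called higher. Cebpb rose 4.19-fold to 632 ± 51.2 CPM, Cebpd 4.68-fold to 902 ± 209 CPM and the AP-1 member Fosl2 3.78-fold to 119 ± 11.6 CPM, with adjusted p-values of 0.000152, 0.000191 and 0.000185. Steady-state RPF against FRC had 1 higher and 10 lower, beside 11.5% and 14.4% of all tested genes. Fosl2 and Jund were among the lower ones, at 9.51-fold and 9.30-fold. Several of these genes also belong to the immediate early response whose sums are given above.

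Of 9 factors that act on the stability of chemokine mRNA, 5 rose after depletion, 0 fell and 4 did not pass the test, beside 11.1% of all tested genes called higher. Zc3h12a, the ribonuclease regnase-1, was at 7.34, 4.01 and 4.10 CPM in steady-state RPF and at 54.2, 56.8 and 44.1 CPM in depleted RPF, without overlap. It rose by 3.32 on the log2 scale (adjusted p = 9.97e-05), beside 2.58-fold for Zfp36l2, which promotes decay (adjusted p = 0.00118), and 2.26-fold for Elavl1, which stabilises mRNAs (adjusted p = 0.000616). Steady-state RPF had 6 of the 9 lower than FRC (14.4% of all tested genes). Zfp36, which encodes tristetraprolin, was at 3024 ± 188 CPM in FRC and 327 ± 72.5 CPM in steady-state RPF, 9.24-fold lower (adjusted p = 5.15e-06), and Zc3h12a was 10.9-fold lower (adjusted p = 3.27e-05).

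Genes that act on the secreted proteins went different ways. Among proteases that trim CCR2 ligands, 4 of 7 tested rose after depletion and 1 fell, beside 11.1% and 9.96% of all tested genes. One of the 7, Mmp13, had 0 counts in FRC and steady-state RPF and 237, 280 and 845 in depleted RPF. It passed the filter only through depleted RPF, so its difference is a description. Mmp3, stromelysin 1, rose 69.4-fold from 49.8 ± 22.2 to 3455 ± 1303 CPM (adjusted p = 0.000101), and Mmp14 2.24-fold (adjusted p = 0.000484). Mmp2, gelatinase A, known to cleave CCL7, fell 2.72-fold to 133 ± 2.03 CPM (adjusted p = 0.00025). Against FRC, 4 of 7 were lower and 0 higher in steady-state RPF (14.4% and 11.5% of all tested genes), Mmp2 by 5.85-fold and Mmp14 by 3.17-fold.

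Of the heparan sulfate genes, 2 of 13 were higher and 3 lower after depletion, beside 11.1% and 9.96% of all tested genes. The core protein gene Sdc4 rose from 570.3, 460.1 and 566 CPM to 6109, 6684 and 7711 CPM (12.8-fold, adjusted p = 4.04e-05). Gpc1, another core protein gene, fell 3.65-fold to 99.7 ± 22.5 CPM, and Ext2, which builds the sugar chain, 2.15-fold. In steady-state RPF against FRC 4 were higher and 4 lower (6 and 3 with library size scaling alone), beside 11.5% and 14.4% of all tested genes, with Sdc3 18.1-fold and Gpc1 15.4-fold higher. For the list the median log2 fold change after depletion was -0.46, beside -0.09 for all tested genes.

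Of 5 receptors of the members, Ccr1 and Ccr3 were in the table and the others were not analysed here. Ccr3 was at 7.71, 11 and 10.8 CPM in steady-state RPF and had 0 counts in the other 6 libraries. With 3 counts summed over the group as the floor, Ccr3 was at least 380-fold higher in steady-state than in depleted RPF and at least 312-fold higher than in FRC. It passed the filter only through steady-state RPF, so this too is a description. Ccr1 did not exceed 2.06 CPM in any library. The scavenger receptor Ackr1 was at 1.39 ± 1.07 CPM in steady-state and 0.275 ± 0.458 CPM in depleted RPF (adjusted p = 0.505), and the groups overlapped. The macrophage and leukocyte sums, given above, were also lower in depleted RPF, and their part in the values of Ccr3 was not tested.

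Of the other CC chemokines, 2 of 13 tested rose in RPF after depletion, Ccl11 and Ccl9, and 0 fell, a share near the 11.1% of all tested genes called higher. Ccl9, which binds CCR1, rose 4.48-fold from 0.978 ± 0.6 to 4.42 ± 2.46 CPM (adjusted p = 0.0154). Against FRC, 4 were lower in steady-state RPF, Ccl9, Ccl11, Ccl19 and Ccl21a, and 1 higher, Ccl24 (14.4% and 11.5% of all tested genes). Ccl24 had 0 counts in every FRC library and 665, 540 and 520 in steady-state RPF. It passed the filter only through RPF, so its difference is a description. Ccl21a was at 1134 ± 98.2 CPM in FRC and 0.572 ± 0.0836 CPM in steady-state RPF, with counts that are uncertain because near-identical copies exist.

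Other genes of monocyte recruitment and adhesion had 2 of 7 tested higher and 2 lower after depletion, beside 11.1% and 9.96% of all tested genes. Csf1, the macrophage growth factor, rose 2.2-fold to 3082 ± 362 CPM (adjusted p = 0.00603) and Icam1, an adhesion ligand, 1.86-fold to 420.4 ± 40.6 CPM (adjusted p = 0.00217). Cxcl12, which holds cells in niches, fell 1.91-fold to 9842 ± 1280.0 CPM (adjusted p = 0.000426), and Vcam1, one of the sort antigens, fell as well. In steady-state RPF against FRC 2 were higher and 4 lower (11.5% and 14.4% of all tested genes). Il34, an alternative ligand of the CSF1 receptor, was 37.4-fold higher and Icam1 7.41-fold lower in RPF (adjusted p = 4.56e-05 and 3.04e-06).

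Genes whose profile over the 9 libraries lay closest to each member were ranked among 13107 tested protein-coding genes by the root mean square difference of centred log2 CPM, a description without a test. Closest to Ccl2 were Mmp3 (0.75), the pyrimidine salvage homologue Uprt (0.84) and the growth factor gene Gdnf (0.85), beside a median of 3.05 over all genes. For Ccl7 they were the amino acid transporter gene Slc36a2 (0.65), the cyclooxygenase gene Ptgs2 (0.89) and Steap4, a metalloreductase (0.96), beside a median of 4.41. Uprt, Gdnf and Slc36a2 had at most 13 counts in any steady-state RPF library, so their distances rest partly on few reads. Ptgs2 was at 1507 ± 229 CPM in FRC, 3.08 ± 0.761 CPM in steady-state RPF and 53.3 ± 0.944 CPM in depleted RPF. Ccl2 and Ccl7, at 2.37 from each other, were each further from one another than from these genes. Closest to Ccl8 were Sel1l3 (0.16), Hoxc10 (0.23) and Tmem30b (0.24), beside a median of 2.92. All 3 were under 5 CPM on average in FRC and at or near 0 counts in RPF, so these distances rest on few reads.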

How the data were processed

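PolyA RNA of sorted cells was measured in 9 libraries, 3 per group, with groups taken from the sample titles. The starting values were the raw counts of reads per gene that the authors deposited. Per the submitters' processing notes, the tools were HTSeq 0.6.1p1, STAR 2.5.3a, Bowtie2 2.2.8 and cutadapt 1.10, with build mm10. The sources used here do not give the annotation release or the strand setting. The 24 further per-sample columns were not used.

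Counts of 15103 genes kept by filterByExpr (minimum count 10) were fitted in R 4.3.3 with edgeR 4.0.16 (TMM, 1 term per group, robust quasi-likelihood, 6 residual degrees of freedom). Two-sided p-values were adjusted by Benjamini-Hochberg over all tested genes, with calls under 0.05. Levels per kilobase used the median transcript length deposited in the table. The share of raw counts taken by each marker list, and the log2 ratios, were compared by exact two-sided permutation tests in SciPy 1.17.1. Sequences were aligned with Biopython 1.88. Intervals and floors cover counting error or the spread between libraries only. No label says whether replicates shared a preparation.

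The members and lists were chosen with earlier results of these data known. Every member is named. From each list up to 3 genes were named by smallest p among those called in depleted against steady-state RPF, and up to 2 in steady-state RPF against FRC. Others complete a count or serve as a check on labels, and were picked after their values were seen. The alternatives were RLE, upper quartile and library size scaling, no filter, a filter of 1 CPM, DESeq2 1.42.0, voom of limma 3.58.1, a fit without the robust prior or with only the 2 groups compared, leaving out each library, and leaving out both libraries without Y-linked reads. A gene of the list of other transcription factors is not reported here by name.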

Additional observations from a re-analysis of the deposited data

How the results depend on the processing

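Over 19 alternative settings, the rises of Ccl2 and Ccl7 in depleted RPF and their lower levels in steady-state RPF than in FRC kept their direction and their call, as did Ccl7 in depleted RPF against FRC. The log2 rise ran from 5.54 to 6.26 for Ccl2 and from 4.53 to 5.39 for Ccl7. Ccl8, which passed the filter only through FRC, had an edgeR adjusted p of 0.0141 in steady-state RPF against FRC and lost that call without the libraries that lack Y-linked reads (log2 -10.25, edgeR adjusted p = 0.0679). Ccl2 in depleted RPF against FRC, not called in any setting, turned to 0.18 with library size scaling. The difference in the Ccl7 to Ccl2 ratio between depleted and steady-state RPF ran from -1.49 to 0.13 when single libraries were left out, the highest value being that without RPF steady replicate 2. With library size scaling, FRC levels were 1087 CPM for Ccl2 and 1508 CPM for Ccl7.

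Counts of genes called moved further. Lower in depleted than in steady-state RPF were 1505 genes, 2319 in DESeq2, 963 without the libraries that lack Y-linked reads, and 968 (without RPF steady replicate 2) to 1561 when single libraries were left out. Higher in steady-state RPF than in FRC were 1734 genes, 3935 with library size scaling and 1129 without the libraries that lack Y-linked reads. Lower there were 2174, and 1342 with library size scaling. Higher in depleted RPF than in FRC were 2557, and 3933 with library size scaling. The share of calls that were higher went from 44.4% to 54.2% with upper quartile scaling in steady-state RPF against FRC. With library size scaling it went from 52.6% to 41.0% in depleted against steady-state RPF, and from 47.4% to 64.9% in depleted RPF against FRC, where the median over all genes shifted by -0.17 and 0.40 on the log2 scale. The cause of these shifts was not tested. Of the counts of list genes called, 1074 stayed within 1.5 times the reported count and 66 did not. No paired analysis was possible because the labels carry no replicate numbers and do not say which libraries share mice. FRC replicate 1 and RPF steady replicate 1, the libraries without Y-linked reads, may share animals, and the fit treats them as independent. Depth limits Ccl12, Ccl8 in RPF, and Ccl7 and Ccl11 in steady-state RPF.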
